A study of Rattus norvegicus with 20 samples.

Results

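Mt1 and Mt2A are the rat genes of the metallothioneins I and II, and Slc30a1 is the gene of a zinc exporter of the cell membrane. Their probe sets were taken by gene symbol in the array's annotation, which gave 1 probe set for each of the 3 genes, out of 31099 on the array. The Mt1 and the Mt2A probe sets had a value on all 20 arrays, whereas the Slc30a1 probe set is listed without a value on every array, so no level of Slc30a1 can be given. The genes were picked because earlier results on these data showed the metallothioneins higher on soybean diets than on casein. Those differences are therefore described and not tested, and tests are kept for comparisons between soybean diets and for differences between rats of 1 diet. It was also known by then that single arrays carried much of the rise, so the differences between rats were not wholly unseen either.

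The 20 arrays are livers of male Sprague-Dawley rats, 4 weeks old on arrival, that took a standard chow for 5 days and then an experimental diet for 21 days. Each diet group had 5 rats on arrays, out of 7, 7, 7 and 8 rats fed, and these were chosen for an average food intake. Casein, the main milk protein, was the only protein of the control diet, at 200 g per kg. On the conventional soybean diet casein and Fukuyutaka, a conventional cultivar, shared the protein in parts of 1:1. On the other 2 diets casein and Yukipirika, a cultivar rich in isoflavones, shared it in parts of 3:1 or 1:1. Array titles were assigned to these diets by their wording, with the title that names casein beside high-isoflavone soybean taken as the 3:1 diet. Neither the metal content of the diets nor the feeding state at sampling is stated in the labels. The rats of a diet carry separate biological replicate numbers.

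Metallothioneins are small proteins, rich in cysteine, that bind zinc, copper and cadmium. In the liver their genes are switched on when zinc in the cell rises, through the transcription factor MTF-1, which binds metal response elements in their promoters. Glucocorticoids, inflammation, fasting and oxidative stress raise them too. Slc30a1 carries zinc out of the cell and is a target of the same factor.

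The stretches of 250 bases before the annotated gene starts of Mt1 and Mt2A are shown because the 2 genes are known targets of a common factor. Whether that factor had a part in their levels in these livers was not tested. The stretches are from RefSeq, build GRCr8. The Mt1 stretch is chr19:10832976-10833225 and the Mt2A stretch is chr19:10838709-10838958, both on the minus strand and written 5′ to 3′ along the gene. Capitals mark the core of the metal response element, searched as TGCACNC and TGCGCNC on both strands.
Mt1: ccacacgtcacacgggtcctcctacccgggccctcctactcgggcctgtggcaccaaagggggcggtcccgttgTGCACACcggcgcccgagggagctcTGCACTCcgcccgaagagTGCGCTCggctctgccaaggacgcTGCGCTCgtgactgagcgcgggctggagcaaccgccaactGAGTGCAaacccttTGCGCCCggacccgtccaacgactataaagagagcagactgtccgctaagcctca
Mt2A: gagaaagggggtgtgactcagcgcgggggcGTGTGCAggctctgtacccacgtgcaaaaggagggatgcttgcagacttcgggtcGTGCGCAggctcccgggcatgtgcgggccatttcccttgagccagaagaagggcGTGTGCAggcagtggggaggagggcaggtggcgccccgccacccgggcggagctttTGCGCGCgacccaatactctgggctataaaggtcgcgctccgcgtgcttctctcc

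The Mt1 stretch held 6 of these cores, 3 of each spelling, and the Mt2A stretch held 4, 2 of each. Of 33465 RefSeq stretches of the same length, 20.6% held at least 1 core, 0.266% held 4 or more and 0.0269% held 6 or more. Both genes have a core of the TGCGCNC spelling on the gene strand at the same place, from base -55 to base -49 counted from the gene start. In each a TATAAA follows shortly after, from base -32 in Mt1 and from base -31 in Mt2A (found on the gene strand in 8.06% of all stretches). The Slc30a1 stretch held 2 cores and no TATAAA, and that of Mt3, the neighbouring gene of metallothionein III, held 3 cores. Mt3 had a similar arrangement, with a TGCGCNC core on the gene strand from base -51 to base -45 and a TATAAA from base -31. The Mt4 stretch held 1 core, of the TGCACNC spelling, and a TATAAA from base -37. The motif TGACNNNGC of antioxidant response elements occurred once each before Mt1, Mt2A and Slc30a1, and in 10.1% of all stretches on either strand. In the RefSeq annotation Mt1, Mt2A, Mt3 and Mt4 follow one another with no other gene between them. RefSeq also lists 4 pseudogenes named after Mt1, and the probe sequences were not used here, so signal from these close copies cannot be told apart from that of Mt1.

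**Figure D1:**
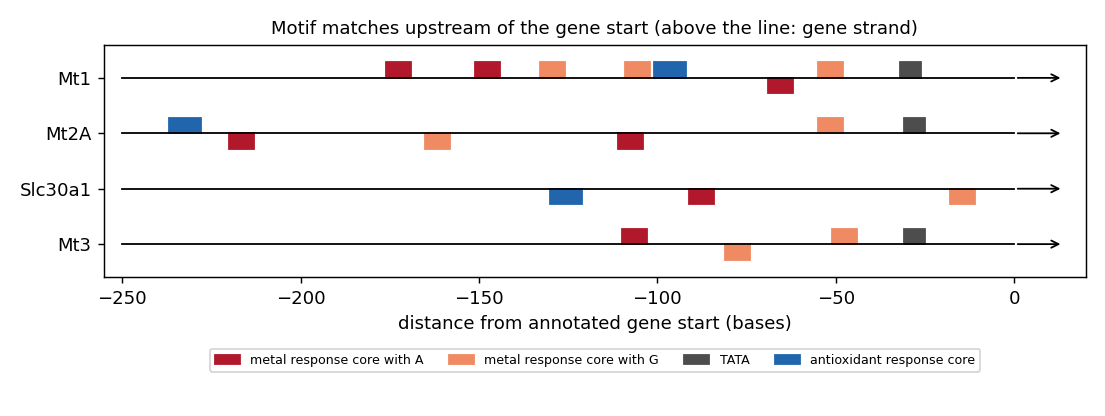
Matches to the core of the metal response element (2 spellings), to TATAAA and to the antioxidant response motif in the 250 bases before the annotated gene start. The horizontal axis is the distance from the gene start in bases, blocks above a line are on the gene strand and blocks below it on the other strand. Mt1 has 6 metal response cores and Mt2A has 4.

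Levels of the metallothioneins were lowest on casein and highest on the 2 diets with soybean and casein in parts of 1:1. On casein, the Mt1 levels of replicates 1 to 5 were 3.42, 2.75, 2.69, 3.002 and 3.02 (log2 signal). On conventional soybean they were 3.64, 4.05, 4.71, 3.66 and 4.04. All 5 rats on conventional soybean lay above all 5 on casein, although the lowest of them was close to casein replicate 1. On the 3:1 high-isoflavone diet the Mt1 levels were 2.91, 3.73, 3.003, 4.37 and 3.27, so that replicates 2 and 4 lay above every casein rat and the other 3 lay among them. On the 1:1 high-isoflavone diet they were 4.36, 4.94, 3.53, 4.14 and 4.20, again all above casein, with replicate 3 the lowest.

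Mt2A spread more widely. Its casein levels were 2.995, 3.48, 2.88, 3.29 and 2.40 in replicates 1 to 5. On conventional soybean they were 3.61, 4.74, 7.78, 4.39 and 4.91. Replicate 3 stood far above the other 4 rats of its diet and above every other rat of the series, and replicate 1 lay just above the highest casein rat. The Mt2A levels on the 3:1 high-isoflavone diet were 2.68, 3.58, 2.91, 4.14 and 3.15, where the same 2 rats as for Mt1, replicates 2 and 4, exceeded all casein rats. On the 1:1 high-isoflavone diet they were 4.44, 5.67, 3.66, 4.75 and 5.27. Replicate 2 was the highest and replicate 3 the lowest of this diet, as for Mt1.

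**Figure D2:**
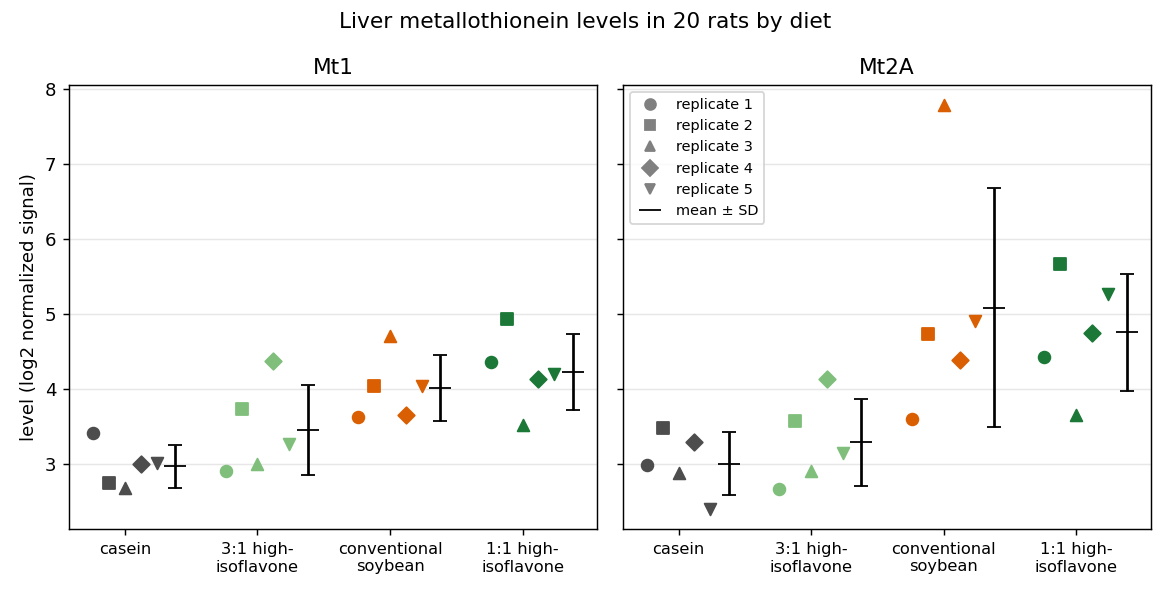
Level of Mt1 (left) and Mt2A (right) on each of the 20 arrays, as log2 normalized signal, by diet in the order of the Mt1 means. Symbols mark the replicate number, and the black bar is the mean ± SD of 5 rats. Conventional soybean replicate 3 reaches 7.78 for Mt2A, and the 3:1 diet has 2 rats above all casein rats for both genes.

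In both genes the diet means ran from casein, through the 3:1 diet, to the 2 diets of 1:1. Mt1 had a mean of 2.97 ± 0.287 on casein, 3.46 ± 0.603 at 3:1, 4.02 ± 0.436 for conventional soybean and 4.23 ± 0.505 at 1:1 with the high-isoflavone cultivar (log2, SD, n = 5 each). For Mt2A they were 3.01 ± 0.414 on casein, 3.29 ± 0.581 on the 3:1 diet, 4.76 ± 0.776 on the 1:1 high-isoflavone diet and 5.09 ± 1.59 on conventional soybean. The casein and 3:1 groups overlapped in both genes, and so did the 2 groups of 1:1, whose order differs between Mt1 and Mt2A. On casein the values are not bright ones: between 46.7% and 79.1% of all tested probe sets lay below Mt2A on the same array. On the 3:1 diet 55.8% to 87.5% did so, and on the 1:1 high-isoflavone diet 81.0% to 95.7%. On conventional soybean it was 79.6% in replicate 1, the lowest, and 99.2% in replicate 3.

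As differences from casein, which chose these genes and are given as a description, Mt1 was higher by 1.04 (SE 0.267) for conventional soybean, by 0.48 (SE 0.267) at 3:1 and by 1.26 (SE 0.267) at 1:1 with the high-isoflavone cultivar, on the log2 scale. Mt2A was 2.08 (SE 0.527), 0.28 (SE 0.527) and 1.75 (SE 0.527) higher. The SE comes from 1 spread over the 4 diets in limma, while the SD of Mt2A on conventional soybean was far above that on casein. All 5 rats lay above all 5 casein rats for both genes on conventional soybean, where 2.97% of all probe sets did so, and for both on the 1:1 high-isoflavone diet, where 2.38% did. On the 3:1 diet neither gene was clear of casein in all rats, as 1.09% of all probe sets were.

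The size of the Mt2A difference on conventional soybean rested on 1 rat. On the linear scale its mean signal there was 62.0, of which replicate 3 alone, at 220.3, made up 71.0% of the sum over the 5 rats. Without that rat the mean was 22.5, against 8.32 on casein, and the log2 difference was 1.40 in place of 2.08. In Mt1 the same rat made up 31.1% of the sum of its diet, and the difference without it was 0.87. On the 3:1 diet the same held of replicate 4, without which the difference from casein was 0.25 for Mt1 and 0.07 for Mt2A. No such dependence was seen for the 1:1 high-isoflavone diet, where the omission of any 1 array left differences of 1.08 to 1.43 for Mt1 and 1.52 to 2.02 for Mt2A.

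**Figure D3:**
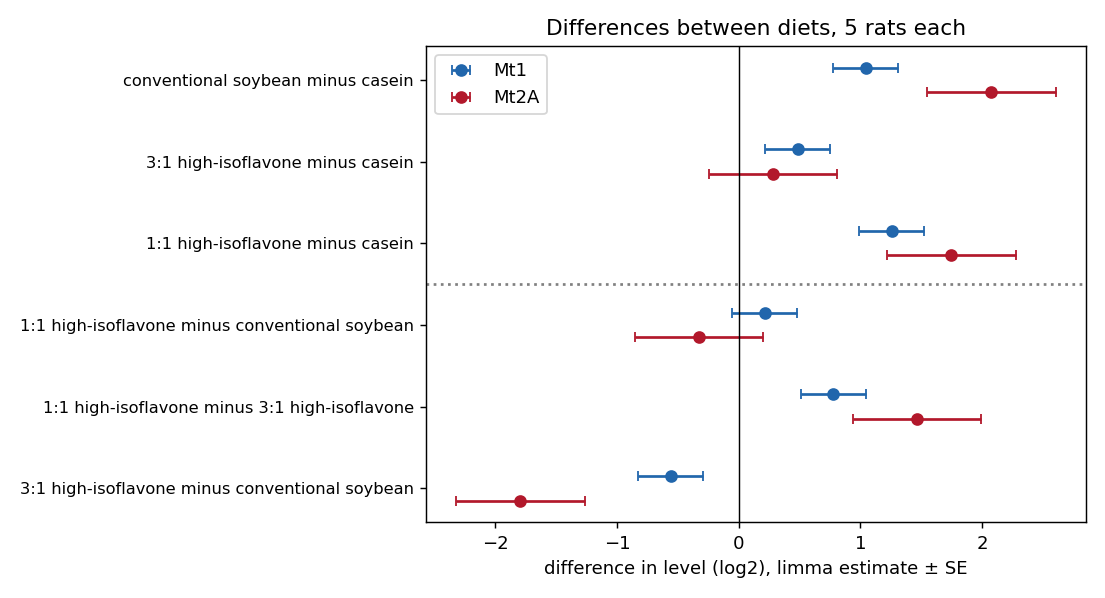
Differences in the level of Mt1 (blue) and Mt2A (red) between diets on the log2 scale, with the SE from limma as bars, 5 rats per diet. The 3 comparisons above the dotted line chose the genes and carry no test. Below it, the differences between the 1:1 and the 3:1 diets are 0.77 for Mt1 and 1.47 for Mt2A.

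The comparisons between soybean diets ask whether cultivar or share of soybean mattered, and neither metallothionein passed limma's test in any of them. At the same share of protein, Mt1 differed by 0.21 between the 1:1 high-isoflavone and the conventional diet (SE 0.267, 95% interval -0.34 to 0.77, adjusted p = 0.92 in limma). Mt2A differed by -0.33 (SE 0.527, interval -1.42 to 0.77, adjusted p = 0.942), and by 0.35 in the other direction without conventional soybean replicate 3. In this comparison 0.0758% of all probe sets were called, and the intervals leave room for differences in either direction.

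For the 2 shares of high-isoflavone soybean, Mt1 was higher by 0.77 at 1:1 than at 3:1 (SE 0.267, interval 0.22 to 1.33) and Mt2A by 1.47 (SE 0.527, interval 0.37 to 2.56). These intervals are not adjusted for the number of probe sets, and the adjusted p in limma was 0.593 for Mt1 and 0.6 for Mt2A. Of the 27702 probe sets 0 were called (0%), while 2000 had an unadjusted p under 0.05, the metallothioneins among them at 0.00837 and 0.0111. Of the 5 rats at 1:1, 4 lay above all rats at 3:1 for Mt2A and 1 did for Mt1.

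Set against conventional soybean, the 3:1 diet had an Mt1 level that differed by -0.56 (SE 0.267, interval -1.11 to -0.0061, adjusted p = 0.456 in limma) and an Mt2A level that differed by -1.79 (SE 0.527, interval -2.89 to -0.70, adjusted p = 0.282). Without conventional soybean replicate 3 the Mt2A difference was -1.12. Here 0.00361% of all probe sets were called. These 2 diets differ in both cultivar and share, and all 3 comparisons use arrays that also entered the differences from casein.

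Within a diet, rats with more Mt1 also had more Mt2A. After removal of the diet means, the deviations of the 2 genes over the 20 rats had a Pearson r of 0.741 (p = 0.00023) and a Spearman rho of 0.692 (p = 0.00193), each from 100000 permutations within diets, two-sided. This was the only pair with values, so no further adjustment applies. Single arrays were known to carry much of the rise when the genes were picked, so the p-values of this covariation are not independent of that choice. Without the 2 rats farthest from the median in Mt1, which were replicate 4 of the 3:1 diet and replicate 2 of the 1:1 high-isoflavone diet, r was 0.729 (p = 0.00393, permutation test). Without conventional soybean replicate 3 it was 0.746 (p = 0.00155, permutation test), and the omission of any 1 array left r between 0.705 and 0.774. The 4 rats numbered 1 resembled one another over all probe sets, and without them r was 0.77 (p = 0.00069, permutation test, n = 16). An r this close within diets was not particular to the pair, as genes named below show. How many of all genes reach it was not counted. A diet has too few rats for a correlation of its own. On the 3 soybean diets the rat with the highest Mt1 was also the one with the highest Mt2A, and likewise the lowest, whereas on casein replicate 1 was highest for Mt1 and replicate 2 for Mt2A.

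**Figure D4:**
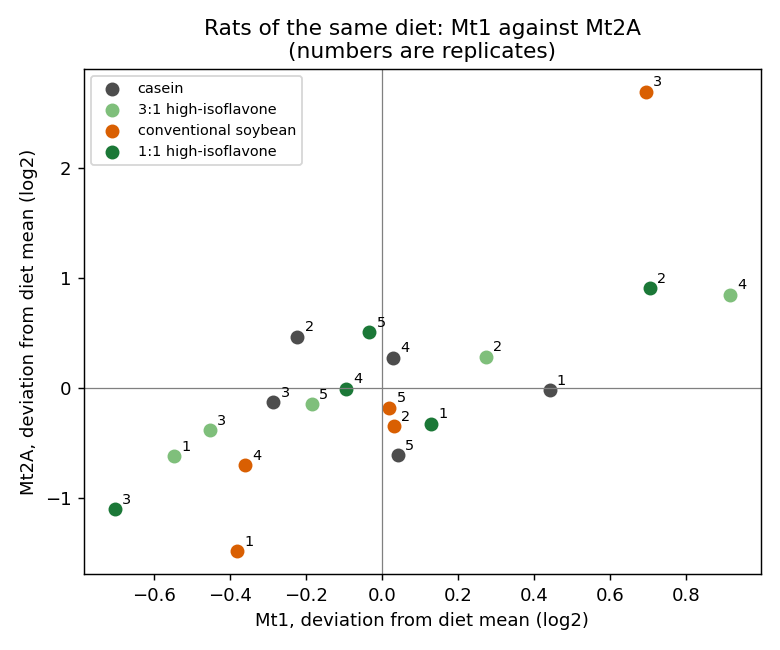
Deviation of each rat from the mean of its diet, Mt1 on the horizontal and Mt2A on the vertical axis (log2), colours for diets and numbers for replicates. The points rise together (Pearson r = 0.741, n = 20), and conventional soybean replicate 3 lies at the top.

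Over all 20 arrays, with diet differences included, Mt1 and Mt2A had an r of 0.844. Each was the second most alike gene of the other among 8412 genes, those with a mean level above the median of all tested probe sets. These correlations are descriptions: the arrays share the diets and the scaling, and the genes were ranked on the same values. Most like Mt1 were Dstl1 (r = 0.854), Casp6, a caspase (0.826), Pald1 (0.812), Cga, the alpha subunit of pituitary glycoprotein hormones (0.784), and Acsm1, which activates medium-chain fatty acids (0.784). Most like Mt2A were Cplx1, a complexin (r = 0.918), Zxdc, a zinc finger protein (0.820), Abca2, a lipid transporter (0.809), Enpp2, the enzyme autotaxin (0.801), and Zfp787 (0.787). Part of the likeness to Mt2A came from conventional soybean replicate 3, without which r fell by little for Cplx1, to 0.851, and further for Zfp787, to 0.576.

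For Mt1 the 5 strongest inverse patterns were all closer than the closest direct one, and for Mt2A the closest of each side were about equal. The inverse side was looked at after the values were seen. For Mt1, Fasn, fatty acid synthase, had r = -0.922, Pnpla3, a lipid droplet protein, -0.893, Elovl6, a fatty acid elongase, -0.892, and Pgd, which supplies NADPH, -0.883, with Siva1 at -0.892. After removal of the diet means r was still -0.898 for Fasn and -0.836 for Elovl6, both closer than the 0.741 between Mt1 and Mt2A. Mt2A ran against Tat, tyrosine aminotransferase (r = -0.909), Dhcr7, the last enzyme of cholesterol synthesis (-0.880), Scly, selenocysteine lyase (-0.875), Gpd1, glycerol-3-phosphate dehydrogenase (-0.875), and Fkbp4, a co-chaperone of steroid receptors (-0.844). Within diets Fkbp4 had the closest of these relations to Mt2A, at -0.919, and -0.850 without conventional soybean replicate 3. The others were less close within diets without that rat, at -0.715 for Scly, -0.653 for Tat, -0.597 for Dhcr7 and -0.469 for Gpd1. Over all arrays, Fkbp4 itself had r = -0.698 without that rat. That rat had a Fasn level of 4.34, against diet means of 7.76 on casein and 6.04 on conventional soybean, and a Tat level of 2.48, against means of 4.95 and 3.74.

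Beside the members, which were not tested against casein and did not pass between soybean diets, no gene of zinc handling passed the test either. Of 27 other genes of zinc transport and metal sensing, 24 had values, and in limma 0 of the 24 passed in each of the 6 comparisons. Of all probe sets, conventional soybean called 1.64% against casein (1.01% higher and 0.621% lower), the 3:1 diet 0.0397% and the 1:1 high-isoflavone diet 2.21% (1.14% higher and 1.07% lower). At an unadjusted p under 0.05 there were 5, 3 and 5 of the 24, against 17.2%, 8.51% and 17.5% of all 13460 genes. The median difference of the 24 was 0.06, 0.04 and 0.04 on the 3 diets, against 0.04, 0.01 and 0.03 over all genes. The single differences from casein ran from -0.30 to 0.42, from -0.47 to 0.34 and from -0.41 to 0.34 (log2).

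Mt3, the metallothionein next to Mt2A, followed the order of diets of Mt2A without passing the test. Its level was 3.66 ± 0.162 with casein alone, 4.02 ± 0.160 for conventional soybean, 3.71 ± 0.177 at 3:1 and 3.95 ± 0.146 at 1:1 (SD, n = 5), and its difference from casein was 0.37 (adjusted p = 0.0836 in limma), 0.05 (0.955) and 0.29 (0.163). Mt4, named after its values were seen, was at 1.84 on casein and differed by 0.17, 0.06 and 0.20 (adjusted p = 0.425, 0.94 and 0.378 in limma). Mtf1, the gene of the metal-sensing factor MTF-1, differed from casein by 0.09, -0.0013 and 0.11 on the 3 diets (SE 0.103, adjusted p = 0.693, 0.999 and 0.666 in limma).

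Among the zinc importers, Slc39a4, best known for zinc uptake in the intestine, had lower means on the soybean diets, with differences of -0.26, -0.47 and -0.41 (SE 0.125, adjusted p = 0.308, 0.211 and 0.0923 in limma). On the 1:1 high-isoflavone diet it passed after quantile normalization (-0.46, adjusted p = 0.0432), after centring and scaling (-0.50, adjusted p = 0.0257) and without casein replicate 1 (-0.49, adjusted p = 0.0452). Slc39a14, the importer raised in liver by inflammation, differed by -0.21, -0.05 and -0.15 (adjusted p = 0.212, 0.936 and 0.378), and Slc39a5 by 0.18, 0.25 and 0.23 (adjusted p = 0.516, 0.673 and 0.394). Slc39a10 differed by -0.30, 0.0015 and -0.30 (adjusted p = 0.364, 0.9995 and 0.378), and Slc30a10, an exporter known for manganese, by 0.30, 0.34 and 0.34 (adjusted p = 0.263, 0.515 and 0.195), all in limma.

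**Figure D5:**
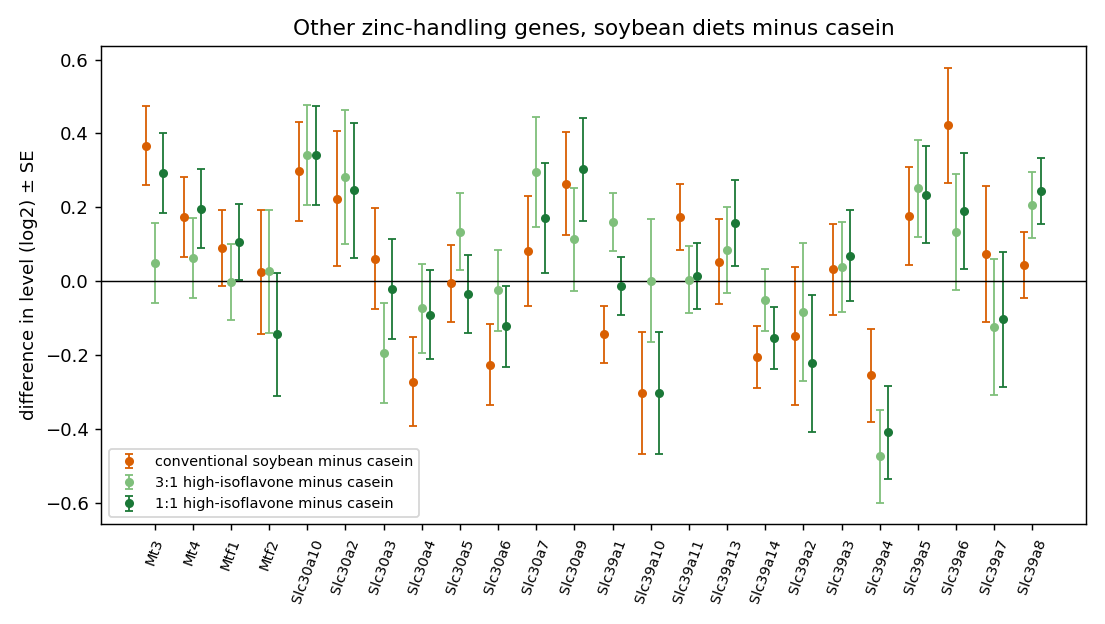
Difference from casein (log2, bars are the SE from limma, 5 rats per diet) of 24 other genes of zinc handling on the 3 soybean diets. No gene passed the test, and the differences stay between -0.47 and 0.42.

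Lists of other stimuli that raise metallothioneins were counted in the same way. In copper and iron handling 0 of 19 measured genes passed against casein on any of the 3 diets, with 5, 2 and 3 at an unadjusted p under 0.05, and in the acute phase and IL-6 response 0 of 19, with 3, 3 and 4. The glucocorticoid list had 4, 2 and 3 of 17 at that unadjusted p and the NRF2 list 4, 4 and 6 of 19, beside the shares of all genes given above. Single differences in copper and iron handling ran from -1.81 to 0.89, from -0.21 to 1.44 and from -0.20 to 0.95 (log2). In the acute phase list they ran from -0.21 to 1.60, from -0.19 to 0.99 and from -0.29 to 1.27. Of all 13460 genes, 143 rose and 106 fell on conventional soybean, 4 and 4 at 3:1, and 178 and 161 at 1:1 with the high-isoflavone cultivar. Of 17 glucocorticoid-responsive genes 1 fell on conventional soybean, 0 passed on the 3:1 diet and 1 fell on the 1:1 high-isoflavone diet. This was Tat in both cases, which glucocorticoids raise. It fell by 1.20 (SE 0.305, adjusted p = 0.0487 in limma) and fell by 1.25 (SE 0.305, adjusted p = 0.0331). When each array was dropped in turn, the call ended in 14 and in 5 of 20 fits (adjusted p up to 0.124 and 0.0969), and without the 2 arrays whose signal floor stood apart (0.12 and 0.0919) or number 1 of all diets (0.0799 and 0.0825). On conventional soybean it also ended in a fit of the 2 diets alone (0.077) and without the trend (0.0641).

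Of 19 NRF2 and oxidative stress genes 1 rose and 1 fell on conventional soybean, and again on the 1:1 high-isoflavone diet, with 0 on the 3:1 diet. The calls over all 13460 genes are given above with the glucocorticoid list. Gclm, a subunit of the first enzyme of glutathione synthesis, rose by 0.87 (SE 0.183, adjusted p = 0.0198 in limma) and by 1.19 (SE 0.183, adjusted p = 0.00116), the former lost at an adjusted p of 0.05003 without the 2 arrays of higher floor and at 0.0701 without number 1 of all diets. Me1, malic enzyme, which also supplies fat synthesis with NADPH, fell by 2.09 on conventional soybean (SE 0.464, adjusted p = 0.0257), lost in 4 of 20 omissions (up to 0.0738), without the arrays of higher floor (0.0841) and in a fit of the 2 diets alone (0.0765). Hmox1, heme oxygenase, fell by 0.52 on the 1:1 high-isoflavone diet (SE 0.137, adjusted p = 0.0492), lost in 16 of 20 omissions (up to 0.126) and also in a fit of the 2 diets alone (0.0681), without the trend (0.0628), without the arrays of higher floor (0.0985) and without number 1 of all diets (0.0612). Between soybean diets 0 of the 97 measured genes of the 5 lists passed in limma, with 7 (1:1 high-isoflavone against conventional), 13 (1:1 against 3:1) and 11 (3:1 against conventional) at an unadjusted p under 0.05, where 7.3%, 7.44% and 11.1% of all genes were.

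The hepatocyte genes Alb, Ttr and Apoa1 were near the top of every array, the lowest being Apoa1, which on 1 array lay above 99.8% of all probe sets. In casein replicate 5 and replicate 1 of the 3:1 diet the lowest signals lay above those of the other 18 arrays. Without these 2 arrays Mt2A was 1.92 higher on conventional soybean and 1.60 higher on the 1:1 high-isoflavone diet than on casein. Markers of macrophages moved with Mt2A in 1 rat: in conventional soybean replicate 3 the mean level of 10 measured markers of 12 was 5.06, the highest of all arrays, against a lowest value of 4.19 on its diet, and all 10 lay above the diet mean. It ran from 4.20 to 4.65 with casein alone, from 4.35 to 4.53 at 3:1 and from 4.02 to 4.30 at 1:1 with the high-isoflavone cultivar. None of the 10 markers was called against casein on any diet, and array signals have no true zero by which a marker could be said to be absent. The deviations of the marker mean and of Mt2A within diets had r = 0.772, and 0.363 without that rat (n = 20 and 19). The 4 measured red blood cell markers of 7 were also all above their diet mean in that rat, and so were the 4 measured neutrophil markers of 7 and 7 of the 9 stellate cell markers. The means of the red blood cell list (4.47) and of the neutrophil list (2.80) in that rat were also the highest of all arrays. Their deviations within diets had r = 0.424 and 0.263 with those of Mt2A, and -0.040 and -0.295 without that rat. The mean of the stellate list was 3.51 in that rat, the highest of all arrays, and its deviations within diets had r = 0.541 with those of Mt2A, and -0.131 without that rat. Beta-actin probes near the 3′ end exceeded those near the 5′ end, a measure of RNA integrity, by 1.83 (log2) in it, the highest of its diet, where the lowest was 1.32, while single rats of the 3:1 and the 1:1 high-isoflavone diet reached 2.13 and 2.10. Over the 10 marker lists, 1 of 6 measured bile duct markers was called against casein on conventional soybean and 1 of 6 on the 1:1 high-isoflavone diet. On the latter 1 of 3 measured adipose markers was called too, and none of the other lists. Of all 13460 genes 143 rose and 106 fell on conventional soybean, and 178 rose and 161 fell on the 1:1 high-isoflavone diet. The part of the marker differences in the metallothionein levels was not tested. In whole liver, fewer cells of a type and less RNA per cell cannot be told apart.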

How the data were processed

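RNA from 20 rat livers was hybridised to Affymetrix rat arrays after a 3′ in vitro transcription labelling, per the labels' protocols. The authors deposited 1 table of log10 values normalized with the SuperNORM data service, per the labels. The base is not stated and was taken from the spike-in controls, whose slope was 0.997 per log10 of amount (SD 0.0242). The deposited log10 values were multiplied by 3.32 to give log2. How probes were summarized is not stated, and its effect on low signals is unknown.

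Of 31099 probe sets, 57 controls and 3342 without any value (2 in both) were left out, which left 27702. Tests used limma (version 3.58.1, R 4.3.3) with 1 mean per diet, all 20 arrays, eBayes with trend and two-sided tests. Each comparison was adjusted by Benjamini-Hochberg over these 27702, and an adjusted p under 0.05 was called. The fit was tested on simulated data. Gene symbols came from the platform annotation, and of several probe sets for a gene the brightest on average stood for it. The members, the 5 pathway lists and the 10 marker lists were chosen with earlier results of these data known. Named were the members, the list genes described by role or called, and the 5 genes with the highest r to each member. Genes were ranked by r only if their mean level lay above the median of all tested probe sets. Mt4 and the 5 genes with the lowest r to each member were added after the values were seen. Alternatives were other scalings, a filter on dim probe sets, fits without the trend or of the 2 diets alone, a replicate block, omission of arrays and an exact permutation test. The number of arrays limits the precision.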

Additional observations from a re-analysis of the deposited data

Results flagged for a closer look

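Of 52 groups of 5 rats tested, 4 held a rat far from the others of its diet, where chance gives about 1 in 20. Me1 was low in casein replicate 1, at 4.82 against 6.38 for the next rat, a gap of 0.835 of the group's range. Me1 was also low in conventional soybean replicate 3, the rat with the highest Mt2A, at 1.80 against 4.49 (0.853 of the range). On the 3:1 diet Me1 was high in replicate 3, at 5.88 against 4.65 (0.82 of the range). Slc39a14 was low in casein replicate 2, at 5.34 against 5.48 (0.772 of the range). The high Mt2A level of conventional soybean replicate 3 did not reach the critical gap of this test.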

How the results depend on the processing

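Of 571 recomputed values of Mt1, Mt2A, their covariation and the counts over the 5 lists, 555 counted as unchanged. Tested values had to keep their direction and side of the threshold, and counts to stay within 1.5 times. The untested differences from casein had to keep their direction and shift by less than the pooled SD within diets. That rule is loose: the Mt2A difference at 3:1 counted as unchanged when it went from 0.28 to 0.07 without replicate 4. The rule for tested differences says little too, as no member passed between soybean diets at first (adjusted p from 0.282 to 0.942 in limma). Unchanged there means the same direction and still not passing. List counts between soybean diets and at 3:1 against casein were 0 at first. A median over the probe sets of a gene, also run, cannot move members with 1 probe set each. The calls of single list genes held less well: they ended in 58 of 180 refits of Tat, Gclm, Me1 and Hmox1, and the count over all probe sets moved by over 1.5 times in 61 of 180. The count of called genes in the 5 lists was 3 on conventional soybean and 3 on the 1:1 high-isoflavone diet against casein. It was 5 on the latter with only the arrays compared, 0 and 1 without the 2 arrays of higher floor, and 0 on conventional soybean when its replicate 3 was left out as well, an alternative chosen after seeing the data. Leaving out 1 array gave 1 to 4 and 1 to 5. The Mt2A difference between the 1:1 high-isoflavone and the conventional diet ran from -0.70 to 0.35 over these omissions, and was 0.35 without the 3 arrays. The exact permutation test over 5 against 5 rats, two-sided and unadjusted, gave p = 0.0159 for the Mt2A difference of 1.47 between 1:1 and 3:1 and also for that of -1.79 between 3:1 and conventional soybean. It gave 0.0714 and 0.135 for Mt1 in these comparisons, and 0.468 (Mt1) and 0.786 (Mt2A) between 1:1 and conventional soybean. The cause of these shifts was not tested.

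Over all probe sets, calls against casein fell from 453 to 114 on conventional soybean and from 613 to 312 on the 1:1 high-isoflavone diet without the 2 arrays of higher floor. With the replicate number as a block, which in this balanced design cannot move a difference of diet means (1.04 for Mt1 and 2.08 for Mt2A on conventional soybean), the SE was 0.278 for Mt1 and 0.535 for Mt2A, 4 list genes were called there and 4 on the 1:1 high-isoflavone diet, and Hmox1 lost its call on the latter (adjusted p = 0.0584 in limma). The labels tie the numbers to no shared batch. Of 30 pairs of same-numbered arrays 12 correlated over 0.1. Among the arrays of other diets, 7 of 20 arrays correlated best with their own number, which 1 of the 5 arrays of each diet carries. All 6 pairs of number 1 correlated over 0.1 (0.203 to 0.401), against 1 to 3 of 6 for each other number, and its part was not tested beyond leaving it out.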
